A study of Homo sapiens with 14 samples.

Results

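The HOX genes encode homeodomain transcription factors and lie in 4 clusters, HOXA, HOXB, HOXC and HOXD. The members described here are the 39 genes whose symbol is HOXA, HOXB, HOXC or HOXD followed by digits only, taken from 27819 genes that the deposited tables share, and antisense genes are kept apart. They are 11 HOXA genes, 10 HOXB genes, 9 HOXC genes and 9 HOXD genes. On hg38 the HOXA genes span 107 kb of chromosome 7, the HOXB genes 200 kb of chromosome 17, the HOXC genes 117 kb of chromosome 12 and the HOXD genes 98 kb of chromosome 2.

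The genes of a cluster are numbered along the chromosome, and genes with the same number in different clusters are paralogs that descend from a common ancestral gene. Low numbers are used towards the head of the embryo and high numbers towards the tail, so that the set of active HOX genes records where along the body axis a cell comes from. The prostate develops from the tail end of that axis, and HOXB13 is a well known marker of prostate epithelium whose protein interacts with the androgen receptor.

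RNA-seq was performed on CWR22Rv1, a human prostate cancer cell line, after 72 h in DMSO as the vehicle or in 1 of 4 inhibitors of glycosylation. Of the 14 libraries, 3 were of DMSO, 3 of Fucotrim I at 30 μM, 2 of Fucotrim II at 60 μM, 3 of SGN-2FF (2FF in the labels) at 100 μM and 3 of P-SiaFNEtoc at 2 μM. Fucotrim I, Fucotrim II and SGN-2FF were made to inhibit the addition of fucose to glycans and P-SiaFNEtoc that of sialic acid. The first 3 are called fucosylation inhibitors below by that design, and glycans were not measured in these libraries. The paper reports that both Fucotrims could lower fucose-binding lectin signal in this line, with differing effectiveness. From that signal it could not determine an inhibitory concentration for Fucotrim I, as the reduction was not large enough. For Fucotrim II it determined the concentration for the smaller reduction sought but not that for the larger. The paper also reports that the Fucotrims lower GDP-mannose. It proposes that their impact on the cells is likely not due to blocked fucosylation alone. All libraries come from a single established line and are called biological repeats, with nothing said of how the cultures were kept apart. The p-values below therefore measure the spread between these libraries. The same DMSO libraries served for every inhibitor, the doses differ, and the inhibitors were therefore not tested against each other.

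Libraries held between 12553094 and 19981314 counts on the shared genes. Counts of mitochondrially encoded genes took 5.98% to 7.03% of a DMSO library, 8.67% to 14.2% with Fucotrim I, 12.2% to 17.03% with Fucotrim II, 8.27% to 8.69% with SGN-2FF and 6.11% to 6.83% with P-SiaFNEtoc. Levels below are CPM, the counts of a gene scaled to the library's total with TMM factors. A gene is called higher or lower where edgeR's quasi-likelihood test against DMSO gave a Benjamini-Hochberg adjusted p-value under 0.05 over all genes tested. In bulk RNA, more cells that express a gene and more RNA per cell cannot be told apart.

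HOXA13 and HOXA11 are adjacent genes of the HOXA cluster. HOXA13 was called with all 4 inhibitors and HOXA11, with fewer reads (40.0 against 227.7 counts on average in DMSO), with none. The log2 fold changes of HOXA11 had the same sign as those of HOXA13 with each inhibitor. Whether these genes differ in their response was not tested. The 250 bases before the RefSeq start of each are shown so that these neighbours can be compared. Both windows are on the minus strand of GRCh38.p14. Capitals mark the motifs GGGCGG and CCAAT on either strand, and in HOXA13 the single CCAAT is followed directly by a GGGCGG.
HOXA13, chr7:27200092-27200341: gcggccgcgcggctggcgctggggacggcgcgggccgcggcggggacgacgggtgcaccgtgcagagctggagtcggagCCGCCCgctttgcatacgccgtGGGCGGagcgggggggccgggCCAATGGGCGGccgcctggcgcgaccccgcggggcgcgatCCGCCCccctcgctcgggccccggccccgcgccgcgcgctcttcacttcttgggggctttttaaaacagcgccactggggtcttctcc
HOXA11, chr7:27185233-27185482: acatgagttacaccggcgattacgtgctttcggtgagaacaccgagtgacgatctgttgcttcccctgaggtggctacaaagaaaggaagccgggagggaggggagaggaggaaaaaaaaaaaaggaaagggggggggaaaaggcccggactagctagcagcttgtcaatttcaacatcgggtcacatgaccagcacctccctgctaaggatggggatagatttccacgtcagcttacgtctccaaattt

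The HOXA13 window holds 4 matches to GGGCGG and 1 to CCAAT, and 78% of its bases are G or C. It lies within HOTTIP, a long noncoding RNA gene on the opposite strand, but in none of its annotated exons, and it shares 171 bases with the window before the RefSeq start of HOTTIP. The HOXA11 window has 51.6% G or C and no match to these motifs or to the other 3 that were searched on both strands, which are TATAAA (the TATA box), TTTAC, the core of posterior HOX sites, and the longer motif TGATTNAT of HOX with PBX. It overlaps exons of HOXA11-AS on the opposite strand. Over all 35097 RefSeq promoters the median was 58%, and 42.6% of windows of this length held GGGCGG and 32% held CCAAT, against 48.1% and 66.7% of the 27 windows of the 20 members with an entry. The TATA box motif was in 10.7% of all windows and 18.5% of HOX windows, the posterior HOX core in 25.3% and 29.6%, and the longer motif in 2.48% and 7.41%. A match is a run of letters and not a measured binding site.

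In DMSO, 28 of the 39 members had a mean of 10 or more counts and are called expressed. They are all 11 HOXA genes, 8 of 10 HOXB genes, all 9 HOXC genes and 0 of 9 HOXD genes. The limit fell in a gap, since HOXA2 had a mean of 19.3 counts just above it and HOXD13 a mean of 7.67 just below. The same 28 genes had 10 or more counts in each DMSO library, and they were the members tested with every inhibitor.

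The 11 members that were not expressed held few or no reads. HOXD13 had 86 counts over the 14 libraries, HOXB2 72, HOXD9 62, HOXD8 21, HOXD4 4 and HOXD12 3. HOXB1, HOXD1, HOXD3, HOXD10 and HOXD11 had 0 counts in every library. With 222886460 counts in all, 0 counts allow a level of up to 0.0135 CPM, which is 3 counts over the 14 libraries, for counting error only.

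Per kb of exon, HOXB13 stood far above the other members in DMSO. It was at 75.8 ± 3.41 CPM per kb (SD, n = 3), followed by HOXC10 at 12.5 ± 0.155, HOXB7 at 10.8 ± 0.564, HOXA5 at 10.1 ± 1.35 and HOXB6 at 9.30 ± 0.0759. HOXA2 stood near the low end at 0.472 ± 0.151 CPM per kb. Of the 26 pairs of neighbours in this order that are reported, 7 had DMSO libraries that did not overlap, among them HOXB13 and HOXC10, and HOXC10 and HOXB7. The other 19 pairs overlapped, HOXB7 and HOXA5, and HOXA5 and HOXB6, among them, so that their order is within the spread of the libraries. Only neighbours in the order were compared. Measured per kb of the longest transcript instead, HOXB6 at 12.4 CPM per kb passed HOXB7 at 12.01, and HOXC10 stood at 14.96.

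**Figure D1:**
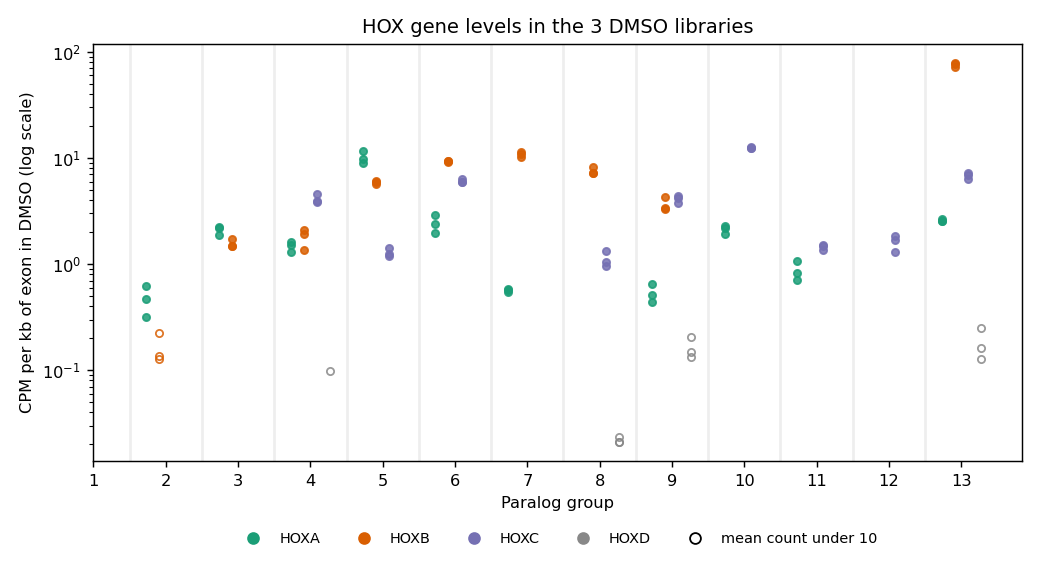
Level of each HOX gene in the 3 DMSO libraries, in CPM per kb of exon on a log scale, by paralog group, with points for single libraries, colours for clusters and open points for members with a mean under 10 counts. Libraries at 0 cannot be drawn on a log axis, and these and a member not reported are left out. HOXB13 lies near 75.8 CPM per kb and HOXC10, the next member, near 12.5.

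HOXB13 alone made up 46.3% to 48.5% of the CPM of all HOX genes in DMSO. Its share lay above every DMSO library with each inhibitor: Fucotrim I gave 58.6% to 63.9%, Fucotrim II 53.9% to 59.2%, SGN-2FF 52.8% to 55.8% and P-SiaFNEtoc 50.0% to 51.5%. Summed over the HOXB genes, DMSO libraries stood at 325 ± 11.5 CPM and Fucotrim I libraries at 470 ± 26.6 (SD, n = 3 each). Without HOXB13, the other HOXB genes summed to 94.7 ± 1.42 CPM in DMSO and 92.01 ± 5.07 with Fucotrim I. The HOXA sum was 60.8 ± 4.13 CPM in DMSO and 51.2 ± 3.37 with Fucotrim I, and the HOXC sum was 99.6 ± 2.78 and 100 ± 6.80.

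With the other inhibitors the cluster sums were as follows. The HOXB sum was 430 and 509 CPM in the 2 Fucotrim II libraries, 407 ± 15.9 with SGN-2FF and 377 ± 10.9 with P-SiaFNEtoc (SD, n = 3 each), all above the highest DMSO library at 334. Without HOXB13, the other HOXB genes summed to 93.19 to 95.99 CPM in DMSO. They stood above this with Fucotrim II (102.9 and 106.1), overlapped with it with SGN-2FF (94.98 to 98.66) and lay below it with P-SiaFNEtoc (87.00 to 93.00). The HOXC sum was 112 and 121 CPM with Fucotrim II, 111 ± 4.21 with SGN-2FF and 119 ± 2.82 with P-SiaFNEtoc, against a highest DMSO library at 103. The HOXA sum was 54.9 and 57.8 CPM with Fucotrim II, 53.1 ± 1.31 with SGN-2FF and 64.2 ± 2.11 with P-SiaFNEtoc. These sums are descriptions and were not tested.

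Of the 28 members tested, Fucotrim I changed 9, with 5 higher (HOXB3, HOXB13, HOXC4, HOXC8 and HOXC11) and 4 lower (HOXA13, HOXB6, HOXB7 and HOXC10). Over all 14188 genes tested with Fucotrim I, 21.6% were called higher and 22.1% lower. The median log2 fold change was -0.10 over the HOX genes and 0.00 over all genes. The share of HOX genes called was thus below that of all genes in both directions.

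Fucotrim II changed 14 of 28 members, with 11 higher (HOXA3, HOXB3, HOXB5, HOXB8, HOXB9, HOXB13, HOXC4, HOXC5, HOXC6, HOXC8 and HOXC11) and 3 lower (HOXA13, HOXB6 and HOXC10). Over all 14617 genes tested, 25.6% were called higher and 25.7% lower. The share called higher was above that of all genes and the share called lower was below it, and the median log2 fold change was 0.10 over the HOX genes and 0.01 over all genes. The count depends on the libraries and the test, since it was 7 without DMSO replicate 1 or without DMSO replicate 3 and 9 with DESeq2's test.

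SGN-2FF changed 5 of the 28 members, a share close to that of all genes, with HOXB13, HOXC6, HOXC8 and HOXC11 higher and HOXA13 lower. Over all 14312 genes tested, 11.5% were called higher and 9.08% lower, and the median log2 fold change was 0.03 over the HOX genes and 0.00 over all genes. The count was 3 without DMSO replicate 1 and 3 without SGN-2FF replicate 2.

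P-SiaFNEtoc changed 6 of 28 members, all of them higher, namely HOXA13, HOXB13, HOXC10, HOXC11, HOXC12 and HOXC13. Over all 14259 genes tested, 9.02% were called higher and 7.33% lower, and the median log2 fold change was 0.08 over the HOX genes and 0.00 over all genes. edgeR's test called 0 members lower, as did limma-voom and DESeq2, and 1 was lower at an unadjusted p-value under 0.05. The share called higher was above that of all genes. The 6 genes all belong to the posterior members, here paralog groups 9 to 13, of which 11 were tested. Of the 13 central members tested (groups 4 to 8) and the 4 anterior members tested (groups 1 to 3), 0 were called with this inhibitor. Without P-SiaFNEtoc replicate 3 the count was 4, and without DMSO replicate 1 it was 4 higher and 1 lower, HOXA5, which is named here after its value was seen (-0.29, edgeR adjusted p = 0.0383).

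By cluster, 1 of 11 HOXA genes was called with Fucotrim I, 2 with Fucotrim II, and 1 each with SGN-2FF and P-SiaFNEtoc, and HOXA13 was among them every time. Of the 8 HOXB genes tested, 4, 6, 1 and 1 were called in the same order, and of the 9 HOXC genes 4, 6, 3 and 4. The shares over all genes tested, higher and lower, were 21.6% and 22.1% with Fucotrim I and 25.6% and 25.7% with Fucotrim II. They were 11.5% and 9.08% with SGN-2FF and 9.02% and 7.33% with P-SiaFNEtoc. Whether clusters or positions differ was not tested. By position, Fucotrim I raised 2 and lowered 2 of the 11 posterior members, Fucotrim II raised 3 and lowered 2, and SGN-2FF raised 2 and lowered 1. Of the 13 central members, Fucotrim I raised 2 and lowered 2, Fucotrim II raised 6 and lowered 1, and SGN-2FF raised 2. Of the 4 anterior members tested, HOXB3 was called with Fucotrim I, and HOXA3 and HOXB3 with Fucotrim II.

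**Figure D2:**
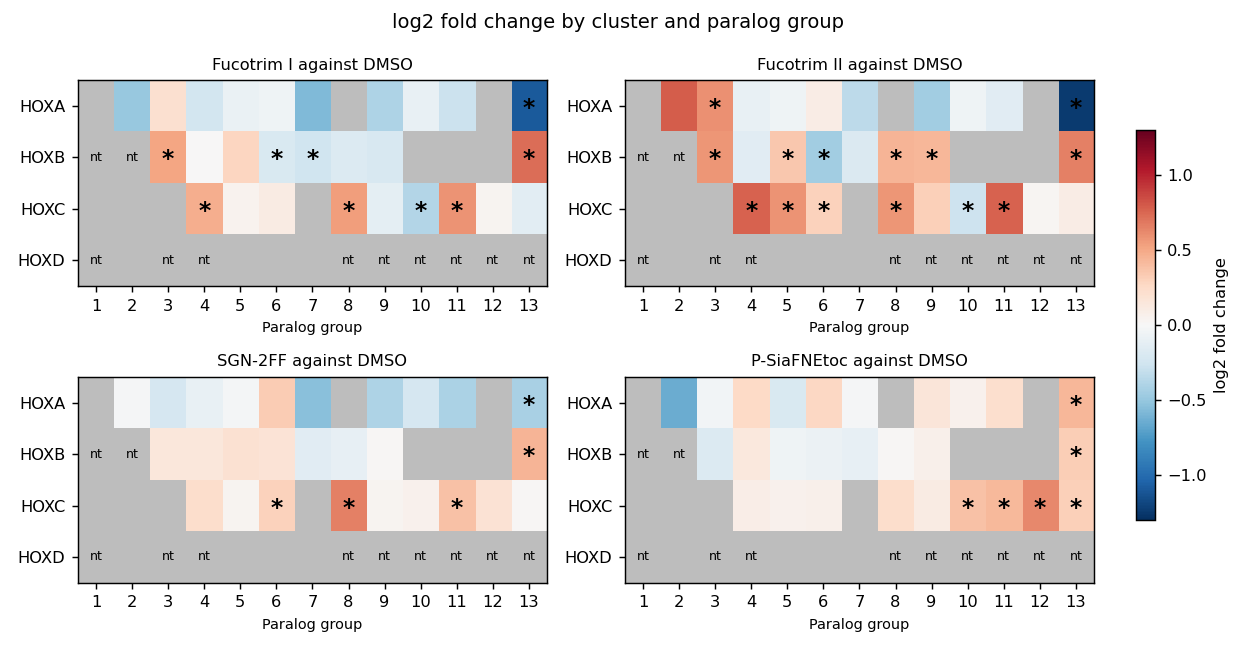
log2 fold change of each HOX gene against DMSO with each inhibitor, clusters in rows and paralog groups in columns, with blue for lower and red for higher. A star marks an adjusted p under 0.05 from edgeR, nt marks a member that was not tested, and grey marks a place with no gene, no test or no value shown. HOXA13 is blue in the 3 panels of the fucosylation inhibitors and red in that of P-SiaFNEtoc, where the 6 stars lie in paralog groups 10 to 13.

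Over the 4 inhibitors, 17 of the 28 expressed members were called at least once, and 11 were called with none. Of the 14019 genes tested with all 4 inhibitors, 65.5% were called at least once, so that 17 of 28 is no larger a share, and 6.1% were called with all 4. HOXA13, HOXB13 and HOXC11 were called with all 4, HOXC8 and HOXC10 with 3, and 4 members with 2. HOXA13 and HOXC10 were called in both directions. The 11 members never called included 9 of the 11 HOXA genes, HOXA2, HOXA5, HOXA9, HOXA10 and HOXA11 among them, as well as HOXB4 and HOXC9. Over the 10 of them that are reported, log2 fold changes ran from -0.57 to 0.01 (Fucotrim I), -0.45 to 0.79 (Fucotrim II), -0.54 to 0.33 (SGN-2FF) and -0.65 to 0.27 (P-SiaFNEtoc). Many of them had few reads, as HOXA2 did with 6 to 38 counts per library.

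HOXA13 is the most posterior gene of the HOXA cluster and is needed for limb ends and the urogenital tract. The gene (NCBI gene 3209) lies at chr7:27193503-27200091 on the minus strand of hg38. It was at 12.99, 12.9 and 13.6 CPM in the DMSO libraries, at 6.01, 5.98 and 6.31 with Fucotrim I, and at 4.87 and 6.23 with Fucotrim II. Every library of both Fucotrims lay below every DMSO library. On the log2 scale HOXA13 changed by -1.09 (standard error 0.11, edgeR adjusted p = 2.02e-07) with Fucotrim I and -1.24 (standard error 0.13, edgeR adjusted p = 9.21e-05) with Fucotrim II.

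With SGN-2FF, HOXA13 was at 8.996, 8.94 and 11.4 CPM, again below DMSO, and with P-SiaFNEtoc it was at 17.8, 18.2 and 16.8 CPM, higher than in any DMSO library. The corresponding log2 fold change was -0.42 (standard error 0.11, edgeR adjusted p = 0.00559) with SGN-2FF and 0.43 (standard error 0.08, edgeR adjusted p = 5.53e-04) with P-SiaFNEtoc. Without SGN-2FF replicate 2, the SGN-2FF value was no longer called (adjusted p = 0.0669), the highest p over its alternatives. HOXA13 shares 1.7% of its exon bases with HOTTIP on the opposite strand and none with a gene on its own strand.

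HOXB13 (NCBI gene 10481, chr17:48724763-48728750, minus strand) lies apart from the rest of the HOXB cluster and shares no annotated exon with another gene. It was at 239, 219 and 233 CPM in DMSO. It rose to 413, 353 and 366 CPM with Fucotrim I and to 324 and 406 with Fucotrim II. With SGN-2FF it was at 326, 306 and 297 CPM, and with P-SiaFNEtoc at 275, 296 and 288.

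All 11 treated libraries lay above all 3 DMSO libraries for HOXB13, the 2 libraries of Fucotrim II being the farthest apart. Its log2 fold changes were 0.73 with Fucotrim I (standard error 0.06, edgeR adjusted p = 4.39e-09) and 0.66 with Fucotrim II (standard error 0.09, edgeR adjusted p = 3.18e-04). They were 0.44 with SGN-2FF (standard error 0.04, edgeR adjusted p = 7.51e-09) and 0.32 with P-SiaFNEtoc (standard error 0.04, edgeR adjusted p = 2.40e-06). The call held under every alternative tried with each inhibitor.

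HOXC13 (NCBI gene 3229, chr12:53938831-53946544, plus strand), a regulator of hair keratins, completes the expressed members of paralog group 13. It was at 15.04, 17.05 and 16.4 CPM in DMSO and at 20.3, 17.9 and 21.6 CPM with P-SiaFNEtoc, where it was higher by 0.31 (log2 scale, standard error 0.08, edgeR adjusted p = 0.00980). All 3 P-SiaFNEtoc libraries lay above DMSO, but the call was lost without DMSO replicate 1, without P-SiaFNEtoc replicate 3 and in a single fit of all libraries, with an adjusted p of up to 0.0826. The Fucotrim I libraries at 15.2, 12.6 and 16.04 CPM, the Fucotrim II libraries at 14.9 and 19.9 and the SGN-2FF libraries at 17.01, 15.7 and 15.9 all overlapped with DMSO (log2 fold changes of -0.14, 0.10 and 0.02). Within paralog group 13, therefore, HOXA13 was lower and HOXB13 higher with each fucosylation inhibitor, HOXC13 was not called there, and all 3 genes were higher with P-SiaFNEtoc. HOXD13 had 3 to 11 counts per library and was not tested.

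**Figure D3:**
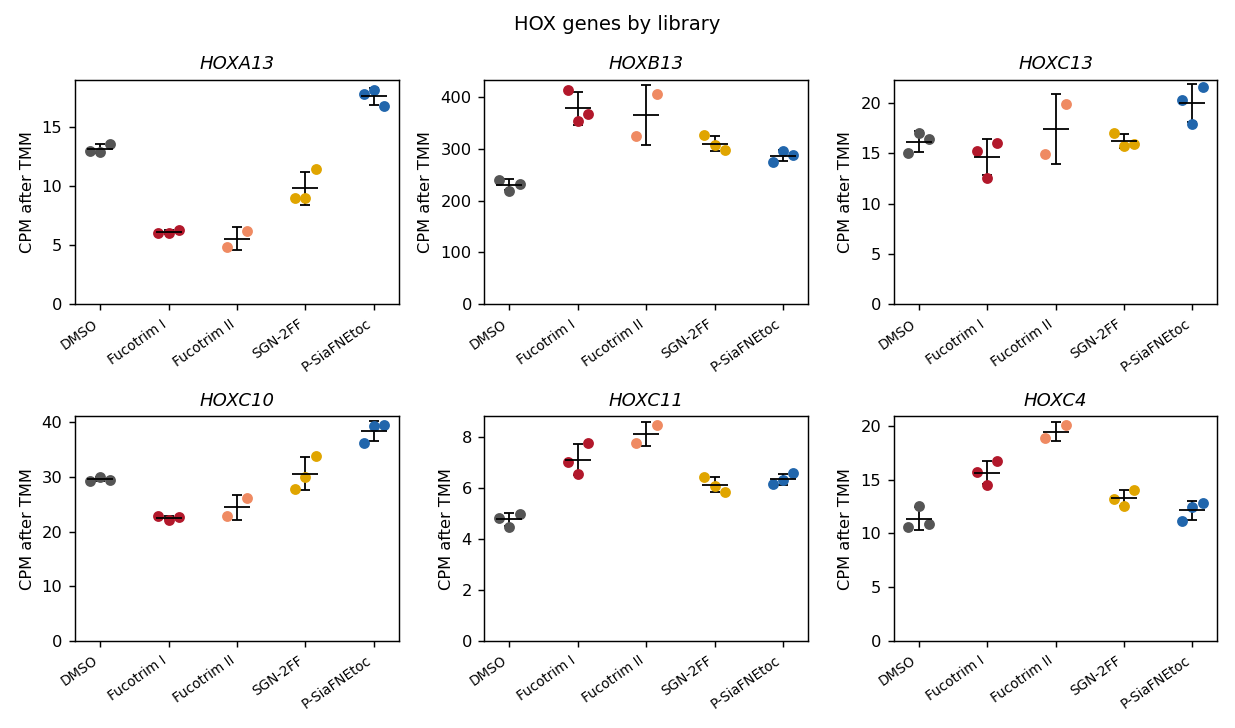
CPM after TMM scaling of 6 HOX genes in every library, with points for libraries, a horizontal line for the group mean and error bars of 1 SD (n = 3, and n = 2 for Fucotrim II), on axes that begin at 0. HOXA13 lies at 12.9 to 13.6 CPM in DMSO, at 5.98 to 6.31 with Fucotrim I and at 16.8 to 18.2 with P-SiaFNEtoc, whereas HOXB13 and HOXC11 lie above DMSO in every treated library.

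HOXC10 (NCBI gene 3226, chr12:53985065-53990279, plus strand), a regulator of hindlimb and motor neuron identity, had the second highest level per kb. It was at 29.2, 29.96 and 29.5 CPM in DMSO, at 22.8, 22.2 and 22.8 with Fucotrim I and at 22.9 and 26.1 with Fucotrim II, so that every library of both Fucotrims was below DMSO. With SGN-2FF it was at 27.9, 30.05 and 33.9 CPM, which overlaps with DMSO, and with P-SiaFNEtoc at 36.3, 39.3 and 39.5, above every DMSO library.

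On the log2 scale HOXC10 changed by -0.38 with Fucotrim I (standard error 0.07, edgeR adjusted p = 3.45e-04) and -0.27 with Fucotrim II (standard error 0.09, edgeR adjusted p = 0.0232). It was 0.06 with SGN-2FF (standard error 0.07, edgeR adjusted p = 0.562) and 0.38 with P-SiaFNEtoc (standard error 0.06, edgeR adjusted p = 5.64e-05). The Fucotrim II call was lost under 6 of 14 alternatives, among them the removal of any single DMSO library or of Fucotrim II replicate 1, with an adjusted p of up to 0.160. HOXC10 shares 7% of its exon bases with a second gene annotated on its own strand in GENCODE v44.

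HOXC11 (NCBI gene 3227, chr12:53973126-53977643, plus strand), a posterior gene of the trunk and limb, was at 4.81, 4.47 and 4.98 CPM in DMSO. It was at 7.01, 6.52 and 7.73 CPM with Fucotrim I, 7.76 and 8.44 with Fucotrim II, 6.43, 6.08 and 5.83 with SGN-2FF, and 6.13, 6.30 and 6.56 with P-SiaFNEtoc. Like HOXB13, it lay above DMSO in all 11 treated libraries. The log2 fold changes were 0.58 with Fucotrim I (standard error 0.14, edgeR adjusted p = 0.00194), 0.77 with Fucotrim II (0.14, adjusted p = 0.00143), 0.38 with SGN-2FF (0.14, adjusted p = 0.0479) and 0.42 with P-SiaFNEtoc (0.13, adjusted p = 0.0274). The SGN-2FF call was lost under 12 of 14 alternatives, among them the removal of any single library, with an adjusted p of up to 0.179. That with P-SiaFNEtoc was lost under 6 of 14, with an adjusted p of up to 0.108 and without DMSO replicate 1 or 2 or any P-SiaFNEtoc library.

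HOXC12 (NCBI gene 3228, chr12:53954903-53958956, plus strand), a posterior gene between HOXC11 and HOXC13, was at 5.97, 4.25 and 5.54 CPM in DMSO and at 8.35, 8.45 and 7.38 with P-SiaFNEtoc. It was higher by 0.62 there (log2 scale, standard error 0.13, edgeR adjusted p = 0.00138), with no overlap, and it overlapped with DMSO at 5.58, 4.70 and 5.82 CPM with Fucotrim I, 4.45 and 6.29 with Fucotrim II and 5.52, 6.56 and 5.52 with SGN-2FF. With P-SiaFNEtoc, then, the 4 adjacent genes HOXC10, HOXC11, HOXC12 and HOXC13 were all higher, while HOXC4, HOXC5, HOXC6, HOXC8 and HOXC9 had log2 fold changes of 0.09, 0.06, 0.07, 0.23 and 0.11 and were not called.

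HOXB9, the remaining posterior gene called, was at 8.68, 8.55 and 11.03 CPM in DMSO and, above these, at 11.3 and 14.05 with Fucotrim II. The other libraries overlapped with DMSO, at 8.58, 7.73 and 7.81 CPM with Fucotrim I, 9.37, 9.42 and 9.38 with SGN-2FF and 10.2, 8.76 and 10.5 with P-SiaFNEtoc. Its Fucotrim II log2 fold change of 0.43 (standard error 0.15, edgeR adjusted p = 0.0371) was lost under 4 of 14 alternatives, without DMSO replicate 1 or 2, without Fucotrim II replicate 2 and with DESeq2's test, with an adjusted p of up to 0.177.

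Among the central members, HOXC8 (NCBI gene 3224, chr12:54008985-54012769, plus strand), a gene of the thoracic region, was called higher with all 3 fucosylation inhibitors. It was at 2.32, 3.19 and 2.55 CPM in DMSO, at 3.29, 4.10 and 4.24 with Fucotrim I, at 4.39 and 3.63 with Fucotrim II and at 3.78, 4.11 and 4.69 with SGN-2FF. These libraries were all above DMSO. The log2 fold changes were 0.54 (standard error 0.19, edgeR adjusted p = 0.0289), 0.57 (0.21, adjusted p = 0.0427) and 0.65 (0.18, adjusted p = 0.0108). They were lost under 5, 6 and 1 of 14 alternatives, with adjusted p of up to 0.128, 0.170 and 0.0557, in each case without DMSO replicate 1. Without DMSO replicate 3 the Fucotrim I and Fucotrim II calls were also lost, as they were without Fucotrim I replicate 2 or 3 and without Fucotrim II replicate 1. With P-SiaFNEtoc, at 3.96, 2.84 and 2.46 CPM, it overlapped with DMSO.

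HOXC4 (NCBI gene 3221, chr12:54016931-54056030, plus strand), which is also active in lymphocytes, was at 10.6, 12.6 and 10.8 CPM in DMSO, 15.7, 14.5 and 16.7 with Fucotrim I and 18.8 and 20.1 with Fucotrim II. Both groups lay above DMSO, with log2 fold changes of 0.47 (standard error 0.10, edgeR adjusted p = 9.76e-04) and 0.77 (0.11, adjusted p = 3.33e-04), which held under every alternative. With SGN-2FF, at 13.2, 12.5 and 14 CPM, and with P-SiaFNEtoc, at 11.2, 12.4 and 12.9, it overlapped with DMSO. HOXC4 shares 17.5% of its exon bases with other genes on its strand, HOXC6 among them, and the authors' counting could have treated such reads as ambiguous.

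HOXC6 (NCBI gene 3223, chr12:53990624-54030823, plus strand), which is often raised in prostate tumours and is used in urine tests for prostate cancer, was at 20.3, 21.8 and 20.7 CPM in DMSO. It was at 27.6 and 24.2 CPM with Fucotrim II and 25.9, 25.0 and 25.7 with SGN-2FF, above DMSO in all 5 libraries, and overlapped with it at 19.6, 22.6 and 25.01 CPM with Fucotrim I and 21.5, 21.9 and 22.6 with P-SiaFNEtoc. The log2 fold change was 0.30 with both (standard error 0.09, edgeR adjusted p = 0.0211, and standard error 0.07, adjusted p = 0.00334). The call with SGN-2FF held under every alternative, and that with Fucotrim II was lost under 4 of 14, among them the removal of DMSO replicate 1 or 3 or of Fucotrim II replicate 1, with an adjusted p of up to 0.138. HOXC6 shares 16.1% of its exon bases with other genes on its strand.

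HOXC5 shares 67.3% of its exon bases with genes on its strand in GENCODE v44. It was at 1.94, 2.01 and 2.30 CPM in DMSO and, above these, at 3.55 and 2.72 with Fucotrim II. It overlapped with DMSO at 2.15, 2.15 and 2.08 CPM with Fucotrim I, 2.19, 1.49 and 2.80 with SGN-2FF and 2.17, 1.45 and 2.84 with P-SiaFNEtoc. Its Fucotrim II log2 fold change of 0.58 (standard error 0.22, edgeR adjusted p = 0.0483) was lost under 10 of 14 alternatives, among them the removal of any single DMSO library or of Fucotrim II replicate 1 (adjusted p up to 0.282).

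HOXB6 (NCBI gene 3216, chr17:48595751-48604992, minus strand), a gene of the trunk that blood progenitors also use, was lower with both Fucotrims. It was at 24.0, 24.3 and 24.4 CPM in DMSO, 19.95, 21.6 and 21.2 with Fucotrim I and 19.0 and 16.5 with Fucotrim II, so that all treated libraries lay below DMSO. The log2 fold change was -0.45 with Fucotrim II (standard error 0.09, edgeR adjusted p = 0.00324). With Fucotrim I it was -0.20 (standard error 0.08, edgeR adjusted p = 0.0469), and this call was lost under 10 of 14 alternatives, with an adjusted p of up to 0.157 and without each library but Fucotrim I replicate 2. With SGN-2FF the libraries were above DMSO, at 27.7, 25.6 and 28.4 CPM, but the difference of 0.18 did not pass the test (edgeR adjusted p = 0.0654). With P-SiaFNEtoc it was at 24.9, 24.5 and 18.7 CPM. HOXB6 shares 16.6% of its exon bases with HOXB3 on its own strand and 16.3% with HOXB-AS3 on the opposite strand.

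HOXB7, the third highest member per kb, was at 17.2, 15.5 and 16.4 CPM in DMSO and 14.1, 14.6 and 11.7 with Fucotrim I, below DMSO. Its log2 fold change of -0.26 (standard error 0.10, edgeR adjusted p = 0.0409) was lost under 4 of 14 alternatives, without DMSO replicate 1 or 3, without Fucotrim I replicate 3 and with DESeq2's test, with an adjusted p of up to 0.200. The Fucotrim II libraries at 14.7 and 14.05 CPM and the SGN-2FF libraries at 14.4, 14.9 and 14.5 were also below DMSO, and did not pass the test (edgeR adjusted p = 0.138 and 0.224), while P-SiaFNEtoc at 14.9, 14.1 and 16.5 overlapped.

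HOXB5 and HOXB8, central genes of the trunk, were called with Fucotrim II alone, and whether they differ between inhibitors was not tested. HOXB5 was at 11.1, 10.6 and 11.3 CPM in DMSO, 10.2, 13.8 and 15.95 with Fucotrim I and 14.7 and 13.3 with Fucotrim II, the last a log2 fold change of 0.35 (standard error 0.11, edgeR adjusted p = 0.0217). HOXB8 was at 19.8, 17.4 and 17.3 CPM in DMSO, 14.9, 16.2 and 16.7 with Fucotrim I and 21.3 and 28.1 with Fucotrim II, the last a log2 fold change of 0.44 (standard error 0.12, edgeR adjusted p = 0.0146). The Fucotrim I libraries of HOXB8 lay below DMSO and did not pass the test (edgeR adjusted p = 0.131), and those of HOXB5 overlapped with it. Both pairs of Fucotrim II libraries were above DMSO, and those of HOXB8 were farther from each other than the lower was from DMSO. With SGN-2FF, HOXB5 was at 11.9, 13.2 and 12.2 CPM, above DMSO, and HOXB8 at 16.9, 16.99 and 15.9, below DMSO, and neither passed the test (edgeR adjusted p = 0.145 and 0.353). With P-SiaFNEtoc, HOXB5 at 10.2, 11.5 and 9.83 CPM and HOXB8 at 17.5, 18.5 and 19.4 overlapped with DMSO. DESeq2's test and a replicate block by title numbers did not call HOXB5 with Fucotrim II. The HOXB5 call was lost when any single DMSO library or Fucotrim II replicate 1 was left out (adjusted p up to 0.114 over 14 alternatives), and the HOXB8 call without DMSO replicate 2 or 3 or Fucotrim II replicate 2 (adjusted p up to 0.108).

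Among the anterior members, HOXB3 (NCBI gene 3213, chr17:48548870-48604912, minus strand), a hindbrain gene, was at 10.9, 12.7 and 11.1 CPM in DMSO and 15.4, 16.9 and 16.9 with Fucotrim I, all above DMSO, a log2 fold change of 0.51 (standard error 0.10, edgeR adjusted p = 3.17e-04). With Fucotrim II it was at 20.9 and 13.8 CPM, and its log2 fold change of 0.57 (standard error 0.17, edgeR adjusted p = 0.0171) was lost without DMSO replicate 1 or 3 or Fucotrim II replicate 1, with an adjusted p of up to 0.124. With SGN-2FF, at 12.5, 13.9 and 11.4 CPM, and P-SiaFNEtoc, at 10.4, 11.4 and 8.70, it overlapped with DMSO.

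HOXA3, the paralog of HOXB3 and likewise a gene of the hindbrain and neck, was at 9.56, 8.11 and 9.47 CPM in DMSO and 14.1 and 13.1 with Fucotrim II, a log2 fold change of 0.59 (standard error 0.12, edgeR adjusted p = 0.00273) that held under every alternative. It overlapped with DMSO at 10.8, 8.87 and 11.5 CPM with Fucotrim I and 7.63, 9.65 and 9.14 with P-SiaFNEtoc. With SGN-2FF, at 8.01, 7.99 and 6.96 CPM, it lay below DMSO and did not pass the test (edgeR adjusted p = 0.184). HOXA3 shares 9.29% of its exon bases with genes on its strand and 17.3% with antisense genes, and the strand setting of the authors' counting is not given in the sources used here.

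The surroundings of the clusters were read from a list of 12 flanking genes, of which 10 were tested. Fucotrim I changed 8 (4 higher, 4 lower), Fucotrim II 8 (4 higher, 4 lower), SGN-2FF 5 (4 higher, 1 lower) and P-SiaFNEtoc 2, both higher. The shares over all genes tested, higher and lower, were 21.6% and 22.1%, 25.6% and 25.7%, 11.5% and 9.08%, and 9.02% and 7.33% in this order, and they hold for the lists below too. The flanking genes' median log2 fold changes were -0.08, 0.00, 0.10 and 0.08.

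Beside HOXA13, HOTTIP (chr7:27198575-27207259, plus strand), a long noncoding RNA known to act on posterior HOXA genes and counted below among the noncoding genes, was at 1.16 to 1.51 CPM in DMSO and 0.429 to 0.499 with Fucotrim I, which is 6 or 7 counts per library. It was at 0.397 and 0.481 CPM with Fucotrim II, 0.529 to 0.954 with SGN-2FF and 1.79 to 2.27 with P-SiaFNEtoc. The libraries of the fucosylation inhibitors were below DMSO and those of P-SiaFNEtoc above it. HOTTIP fell by 1.53 (log2 scale, standard error 0.34, edgeR adjusted p = 0.00110) with Fucotrim I and by 1.63 (0.35, adjusted p = 0.00371) with Fucotrim II. The values of -0.74 with SGN-2FF and 0.54 with P-SiaFNEtoc did not pass the test (edgeR adjusted p = 0.0888 and 0.108).

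EVX1, a homeobox gene 42.6 kb beyond HOXA13, was at 6.04 to 6.79 CPM in DMSO, 3.36 to 4.77 with Fucotrim I, 3.97 and 4.63 with Fucotrim II, 7.34 to 8.92 with SGN-2FF and 10.6 to 13.1 with P-SiaFNEtoc. It was called lower with the Fucotrims (log2 fold changes of -0.60 and -0.56, standard error 0.16 each, edgeR adjusted p = 0.00387 and 0.0150) and higher with SGN-2FF (0.35, standard error 0.12, adjusted p = 0.0474) and P-SiaFNEtoc (0.94, standard error 0.11, adjusted p = 4.53e-07). EVX1 shares 15.8% of its exon bases with EVX1-AS on the opposite strand. On the other side of HOXA13, HOXA11, HOXA10 and HOXA9 were called with no inhibitor. HOXA11, with 40.0 counts on average in DMSO, had log2 fold changes of -0.28 (Fucotrim I), -0.15 (Fucotrim II), -0.41 (SGN-2FF) and 0.22 (P-SiaFNEtoc). HOXA11 and HOXA10 overlapped with DMSO in every treated group. HOXA9 had few reads, at 24 to 36 counts per DMSO library. It lay below DMSO in each library of a fucosylation inhibitor and overlapped with P-SiaFNEtoc. The log2 fold changes of HOXA9 were -0.40 (Fucotrim I), -0.45 (Fucotrim II), -0.40 (SGN-2FF) and 0.16 (P-SiaFNEtoc). Farther out, HIBADH at 325 kb beyond HOXA13 and SKAP2 at 97.8 kb from the anterior end of the cluster were lower with Fucotrim I (-0.36 and -0.31) and Fucotrim II (-0.49 and -0.75), and HIBADH was lower with SGN-2FF (-0.13).

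Between HOXB13 and the rest of its cluster lie PRAC1 and PRAC2, genes named for their expression in prostate and rectum. PRAC1, 2.24 kb from HOXB13, was at 14.8 to 15.8 CPM in DMSO, 30 to 35.5 with Fucotrim I, 45.5 and 47.7 with Fucotrim II, 18.8 to 19.6 with SGN-2FF and 16.2 to 17.8 with P-SiaFNEtoc, each group above DMSO. Its log2 fold changes were 1.09 (standard error 0.08, edgeR adjusted p = 4.36e-09), 1.59 (0.08, adjusted p = 3.54e-06), 0.33 (0.08, adjusted p = 0.00349) and 0.15 (0.08, adjusted p = 0.228). PRAC2, on the opposite strand 0.004 kb from HOXB13, had 11.3 to 13.8 CPM in DMSO and 21.1 to 23.7 with Fucotrim I, a log2 fold change of 0.85 (standard error 0.10, edgeR adjusted p = 7.44e-07). It had 23.7 and 28.0 CPM with Fucotrim II, a log2 fold change of 1.03 named here after its value was seen (edgeR adjusted p = 1.04e-04). It was not called with SGN-2FF (0.09, adjusted p = 0.557) or P-SiaFNEtoc (0.08, adjusted p = 0.594).

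TTLL6, a tubulin-modifying enzyme gene 33.5 kb beyond HOXB13 on the far side, was at 1.27 to 1.81 CPM in DMSO, 4.49 to 5.98 with Fucotrim I, 4.36 and 5.35 with Fucotrim II, and above DMSO with SGN-2FF too at 3.03 to 4.29. It was higher by 1.79 (log2 scale, standard error 0.21, edgeR adjusted p = 1.33e-06), 1.72 (0.22, adjusted p = 2.43e-04) and 1.28 (0.22, adjusted p = 1.38e-04), and had a log2 fold change of 0.33 with P-SiaFNEtoc (adjusted p = 0.380). PRAC1 and TTLL6, on opposite sides of HOXB13, were thus called higher with all 3 fucosylation inhibitors and PRAC2, between PRAC1 and HOXB13, with the Fucotrims alone, whereas HOXB7, HOXB8 and HOXB9 beyond PRAC1 had values of both signs. CALCOCO1, 211 kb beyond HOXC13, was higher with all 4 inhibitors (0.30 with Fucotrim I, 1.14 with Fucotrim II, 0.25 with SGN-2FF and 0.19 with P-SiaFNEtoc), and its Fucotrim I and SGN-2FF values are named after they were seen.

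**Figure D4:**
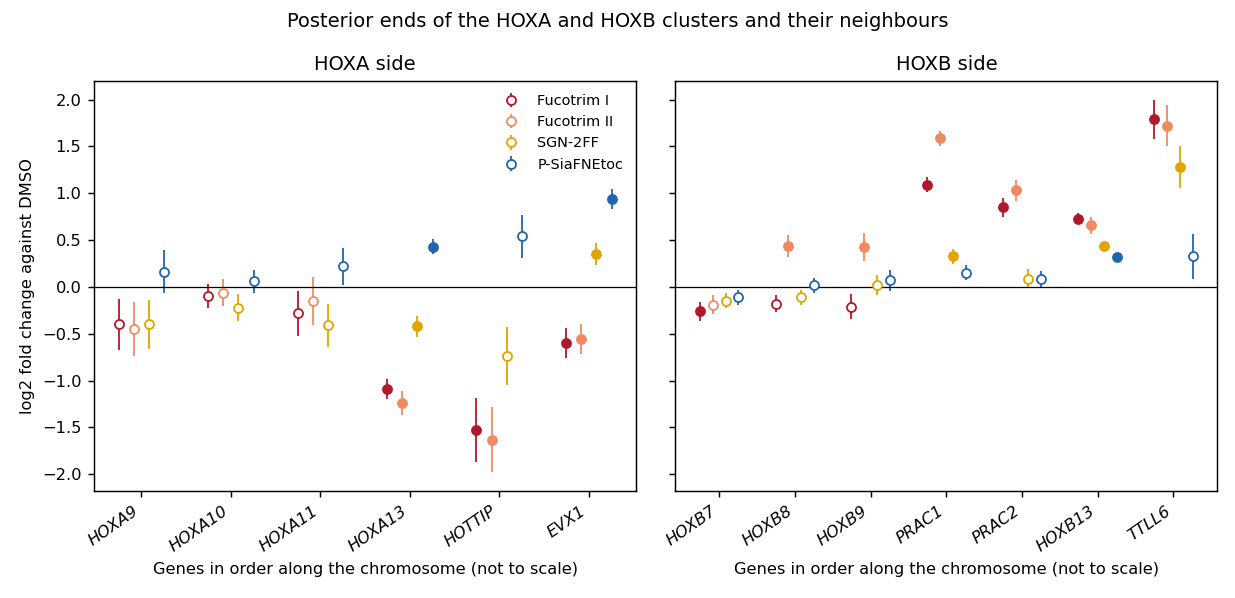
log2 fold change against DMSO with each inhibitor for genes at the posterior ends of the HOXA and HOXB clusters and beyond, in chromosomal order and not to scale, with bars of 1 standard error. Filled points have an edgeR adjusted p under 0.05. HOXA13, HOTTIP and EVX1 lie between -1.63 and -0.56 with both Fucotrims, and PRAC1, PRAC2, HOXB13 and TTLL6 between 0.66 and 1.79.

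Of 25 noncoding genes of the clusters, 8 or 9 were tested with each inhibitor. HOTTIP was the gene called lower with each Fucotrim. Another 2 were called higher with Fucotrim I, 3 with Fucotrim II, 1 with SGN-2FF and 0 with P-SiaFNEtoc by edgeR, where 2 were higher at an unadjusted p-value under 0.05. HOTAIRM1, a long noncoding RNA of the HOXA cluster, was higher with Fucotrim I (0.62, edgeR adjusted p = 0.00371) and Fucotrim II (1.22, adjusted p = 2.79e-04), at 3.30 to 4.36 CPM in DMSO, 5.48 to 5.72 and 8.21 to 8.90. HOXC-AS1 was higher with both too (0.63 and 1.10), and HOXC-AS3 with Fucotrim II (1.58, edgeR adjusted p = 3.73e-04), at 1.29 to 1.82 CPM in DMSO and 4.14 and 5.23. HOTAIR, a long noncoding RNA of the HOXC cluster, was higher with SGN-2FF (0.70, edgeR adjusted p = 0.0172), at 1.62 to 2.82 CPM in DMSO and 3.04 to 3.71. Of the microRNA genes of the clusters, MIR10A, MIR10B, MIR196A1, MIR196A2 and MIR196B had 0 counts in every library and MIR615 at most 1, in libraries made from mRNA.

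HOX proteins bind DNA together with TALE cofactors of the PBX, MEIS and PKNOX families, of which 7 of 9 genes were tested. Of these, 1 was called higher and 1 lower with Fucotrim I, 1 and 2 with Fucotrim II, and 1 and 0 with P-SiaFNEtoc by edgeR, where 1 was lower at an unadjusted p-value under 0.05. MEIS3 was higher with Fucotrim I (0.47) and Fucotrim II (1.00, edgeR adjusted p = 8.67e-04), and MEIS1 was lower with Fucotrim II (-0.73, adjusted p = 0.0146). SGN-2FF changed 0 of the 7 with edgeR, and 0 at an unadjusted p-value under 0.05. The list's medians were -0.01, -0.03, -0.07 and -0.09 in the order Fucotrim I, Fucotrim II, SGN-2FF, P-SiaFNEtoc.

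Polycomb proteins keep HOX genes silent and trithorax proteins keep them active. Of 30 Polycomb genes, Fucotrim I raised 2 and lowered 9 of 27 tested, Fucotrim II 3 and 11 of 28, SGN-2FF 1 and 4 of 27, and P-SiaFNEtoc 1 and 5 of 28, with medians of -0.04, -0.20, -0.02 and -0.02. Over all genes tested, 22.1%, 25.7%, 9.08% and 7.33% were called lower. SUZ12, a core subunit of Polycomb repressive complex 2, was lower with all 4 (-0.37, -0.58, -0.18 and -0.19 in the order Fucotrim I, Fucotrim II, SGN-2FF and P-SiaFNEtoc), at 92.3 to 102 CPM in DMSO and 61.6 to 89.9 in the treated libraries. EZH2, its catalytic partner, was lower with P-SiaFNEtoc (-0.23, edgeR adjusted p = 4.66e-04) and, named after its value was seen, with Fucotrim II (-0.25, adjusted p = 0.0372). Of 18 trithorax and H3K27 demethylase genes, all tested, the numbers higher and lower were 4 and 4, 3 and 5, 2 and 2, and 0 and 2, with medians of -0.04, -0.08, -0.02 and -0.03. With P-SiaFNEtoc, 0 of these 18 were higher with edgeR and 0 at an unadjusted p-value under 0.05. KMT2C, a histone methyltransferase gene, was higher with the 3 fucosylation inhibitors (0.43, 0.35 and 0.15), and RBBP5 was lower with all 4 (-0.39, -0.39, -0.18 and -0.18). Of the 6 ParaHOX genes, which are relatives of the HOX genes, 0 were tested.

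The cell line label was checked against 9 markers of prostate luminal epithelium, HOXB13 among them, which were all tested. With each inhibitor 7 of 9 were called higher, and 0 were called lower with edgeR or at an unadjusted p-value under 0.05. Their summed level was 2440 to 2540 CPM in DMSO, 3300 to 3370 with Fucotrim I, 3050 to 3340 with Fucotrim II, 3000 to 3130 with SGN-2FF and 2830 to 2890 with P-SiaFNEtoc. KLK3, which encodes prostate-specific antigen, rose by 1.15, 0.59, 1.32 and 0.59 on the log2 scale in that order, and TMPRSS2 by 1.38, 1.41, 1.14 and 0.67. With each inhibitor HOXB13 thus rose beside 6 other luminal genes, and their part in the result was not tested. Its log2 fold change without mitochondrially encoded genes was 0.73, 0.67, 0.44 and 0.32 in the same order.

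Most markers of other cells had few reads, while SYP, COL1A1 and CD68 stood higher. The 3 basal markers summed to at most 0.454 CPM and the 3 endothelial markers to at most 0.249 CPM in any library, and CD3E was at 0 in all 14. Of the neuroendocrine markers, CHGA and INSM1 were near 0 (at most 0.0966 and 0.125 CPM) while SYP was at 97.9 to 111 CPM in DMSO and 130 to 156 with Fucotrim II, where it was called higher as with Fucotrim I. The 4 stromal markers summed to 17.6 to 19.2 CPM in DMSO and 17.3 to 30.1 in the treated libraries, and COL1A1 among them had 16.8 to 18.2 CPM in DMSO and 23.2 to 29.2 with Fucotrim II, and DCN at most 0.930 CPM in any library. The 3 immune markers summed to 4.86 to 6.30 CPM in DMSO and 4.65 to 8.09 in the treated libraries, and CD68 among them was at 4.81 to 6.14 CPM in DMSO and 6.51 to 8.01 with SGN-2FF, and PTPRC at most 0.189 CPM. The part of these markers in the results above was not tested.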

How the data were processed

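Per the study's methods, mRNA was made into stranded libraries and sequenced as single reads. In Galaxy the authors removed adapters (Cutadapt), aligned to hg38 (HISAT2) and assigned reads to genes (featureCounts). Raw counts were deposited as 4 tables, 1 for every inhibitor, that repeat the DMSO libraries. The annotation release, strand setting and handling of multiply mapped reads are not given in the sources used here. The SGN-2FF table has no symbols and was joined by NCBI gene number, and 549 of its rows stayed without a symbol.

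Each inhibitor was fitted with DMSO alone in edgeR 4.0.16 (R 4.3.3). filterByExpr removed low genes (count 10, total 15), TMM factors scaled the libraries, and glmQLFit with glmQLFTest gave the p-values. The standard errors given were derived from that test. Each is the absolute log2 fold change divided by the square root of the test's F statistic. Figures were drawn with matplotlib. limma-voom, which the study names, was an alternative (limma 3.58.1), as were DESeq2 1.42.0, other scaling and filters, a single fit, leaving out mitochondrially encoded genes or each library, and replicate numbers as a block. For levels, TMM was computed over all 14 libraries together. Gene positions, lengths and overlaps come from GENCODE v44, and promoter windows from RefSeq (GRCh38.p14). The authors' counts carry NCBI gene numbers, so the overlaps may differ in the annotation that they counted on. No 100-base stretch of a HOX transcript was found in a gene elsewhere.

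Values in every library are given for members called with at least 1 inhibitor and for the 3 members highest per kb. Other lists are described by counts, medians and at most 3 genes per direction and inhibitor. The members and lists were chosen with earlier results of these data known. The 2 or 3 libraries per group limit precision. Depth was 12553094 to 19981314 counts per library, and floors cover counting error only. A single member and a cofactor gene stay in the counts and sums but are not reported here by name or value.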

Additional observations from a re-analysis of the deposited data

How the results depend on the processing

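Of the 34 calls of HOX genes, 18 held under every alternative and 16 were lost under at least 1. Over 476 values of called genes under alternatives, 84 were lost and 0 changed sign. Of 1089 values of genes not called, 10 passed the threshold, among them HOXB5 without Fucotrim I replicate 1, HOXC9 and HOXC13 without Fucotrim II replicate 1, HOXA2 without Fucotrim II replicate 2 or DMSO replicate 2, and HOXC4 without DMSO replicate 2 (SGN-2FF). The number of HOX genes called with Fucotrim II, 14, was 9 with DESeq2's test and 9 with the replicate block by title numbers. Leaving out 1 library at a time gave 6 to 9 genes with Fucotrim I, 7 to 13 with Fucotrim II, 3 to 5 with SGN-2FF and 4 to 6 with P-SiaFNEtoc. Where this left a single Fucotrim II library, it was assumed to vary like the DMSO libraries. How many of all genes were called without a library or with another test is not given here. These counts therefore do not show whether HOX genes changed more than other genes. The cause of these changes was not tested.

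Between libraries with the same title number, correlations of deviations from group means were between -0.19 and 0.13. With Fucotrim I they were 0.13, 0.11 and 0.02. By the numbers in the library names, those of Fucotrim II were 0.19 and 0.05. The main fits do not treat the numbers as pairs. With the replicate block, 10 genes were called with Fucotrim I, 4 with SGN-2FF and 6 with P-SiaFNEtoc. The titles of the Fucotrim II libraries carry other numbers than their library names, and a block by the latter gave 13. The crossed order of the 2 Fucotrim II libraries was not fitted. The median log2 fold change of all genes was at most 0.015 under the scalings tried. HOXA2, with 6 to 38 counts per library, had a log2 fold change of 0.79 with Fucotrim II that missed the threshold (edgeR adjusted p = 0.0654).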
